A study of Rattus norvegicus with 6 samples.

Results

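The genes described are those of the glutathione, peroxiredoxin and antioxidant enzyme families on a rat whole-genome expression array. They were chosen by symbol: the glutathione S-transferases (Gsta, Gstk, Gstm, Gsto, Gstp, Gstt and Gstz genes and the microsomal Mgst genes), the glutathione peroxidases (Gpx), the peroxiredoxins (Prdx), the superoxide dismutases (Sod), every symbol that starts with Txn, and Gclc, Gclm, Gss, Gsr, Cat, Nqo1, Hmox1 and Hmox2. This rule gave 66 genes on 71 probes, out of 26903 gene names on 30367 probes, and each gene was followed by the probe with its highest mean signal. Ovaries of Wistar rats were collected on postnatal day (PND) 7 from female pups that had been injected intraperitoneally on PNDs 3 and 5. One treatment group received 0.05 mg/kg lipopolysaccharide (LPS) from Salmonella enterica, an outer membrane component of Gram-negative bacteria and the ligand of Toll-like receptor 4, and the control group received the same volume of saline. No transgene or mutant allele was involved. Total RNA was hybridized to 6 single-colour arrays, 3 per treatment. The methods state that whole litters were assigned to a treatment, and that the ovaries of each treatment came from fewer litters than there were arrays. The labels do not say which animal or litter each array came from, so arrays of a treatment that share a litter cannot be told apart from those that do not, and the p-values measure only the spread between these arrays.

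Glutathione is a small thiol peptide that is made in the cytosol by glutamate-cysteine ligase and glutathione synthetase and is kept reduced by glutathione reductase. Glutathione peroxidases and peroxiredoxins remove hydrogen peroxide and lipid peroxides, the latter with electrons from thioredoxin and thioredoxin reductase, while superoxide dismutases and catalase act earlier and in parallel, and glutathione S-transferases attach glutathione to electrophiles. In the ovary these enzymes are known from oocytes, granulosa cells and steroid-producing cells, in which steroid synthesis in mitochondria generates oxidants, and many of their genes are targets of the transcription factor Nrf2.

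Values are log2 signals relative to the 75th percentile of each array, so a value of 1 means a signal at 2 times that percentile. Differences are LPS minus saline on this log2 scale with the standard error (SE) from limma, and the fold criterion was a 2-fold or larger difference with an unadjusted p under 0.05. The ovarian identity of the tissue was borne out by oocyte markers, all 8 of which were well above background on all 6 arrays. Saline replicates 2 and 3 stood apart, because they also carried adrenal transcripts. The summed signal of 7 adrenal cortex markers was 165 and 221 times the 75th percentile on these arrays and 0.805 to 1.67 times on the other 4 arrays. The sum of 9 adrenal medulla markers was 89.8 and 58.1 on the same arrays and 3.15 to 5.97 on the others. Every measured marker of both lists had its 2 highest signals on saline replicates 2 and 3, and the cortex markers Cyp11b1, Mc2r and Akr1b7 reached a level well above background only there. Of the other lists, the liver sum was 10.7 on saline replicate 2, 1.35 on saline replicate 3 and 0.392 to 0.59 on the other arrays. The oviduct and epithelium sum was lowest on saline replicates 2 and 3, at 27.2 and 36.7, against 41.4 to 72 on the others. The sums for granulosa cells (20.1 to 70.9), oocytes (16.8 to 47), theca and stroma (84.7 to 158) and kidney (0.462 to 1.07) overlapped between treatments. Those for red blood cells and macrophages did not single out saline replicates 2 and 3, but did not overlap between treatments. The red blood cell sums were 77.1 to 115 after LPS and 128 to 144 after saline. The macrophage sums were 13.2 to 13.3 after LPS and 10.4 to 12.1 after saline. Of the 12 macrophage markers 4 were higher after LPS at an unadjusted p under 0.05 and 0 were lower, and their part in the antioxidant values was not tested. In whole organs, a change in the number of cells of a type and a change in RNA per cell cannot be told apart.

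**Figure D1:**
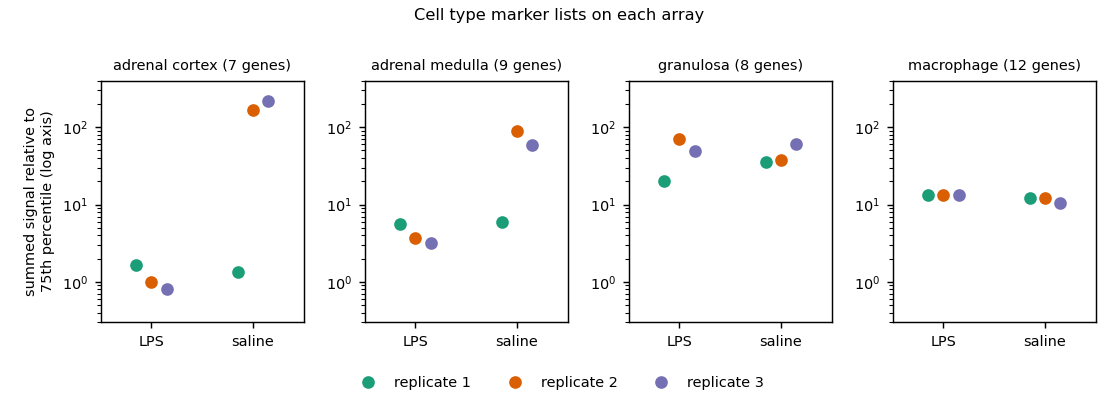
Summed signal of 4 cell type marker lists on each array, relative to the 75th percentile of the array, on a log axis, with 1 point per array coloured by replicate number. Saline replicates 2 and 3 lie at 165 and 221 for adrenal cortex and at 89.8 and 58.1 for adrenal medulla, far above the other arrays, while the granulosa and macrophage sums do not set them apart.

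Of the 66 antioxidant genes, 2 were lower in LPS-treated ovaries at the fold criterion, Prdx3 and Sod2, and 0 were higher. Among all 26903 genes tested the criterion was met by 1.03% in the lower and 0.539% in the higher direction. At an unadjusted p under 0.05 without a fold limit, 8 antioxidant genes were lower (12.1%, against 13.7% of all genes) and 0 were higher (against 2.22%), so the share that was lower was near that of all genes. No gene on the array passed an adjusted p of 0.05 in limma, and the lowest adjusted p of any gene was 0.271, against 596 higher and 3683 lower genes at an unadjusted p under 0.05. The methods' t-test, which is a 2-group analysis of variance per probe, also left 0 genes after adjustment.

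Well above background on all 6 arrays were 58 of the 66 genes. Among these, Gpx4, Prdx5, Sod2 and Prdx3 had an unadjusted p under 0.05, all lower after LPS (6.9%, against 2.41% of the 16295 genes well above background on all arrays). The other 4 genes at that threshold, Gclm, Gpx5, Txndc2 and Txndc8, were never well above background. The median difference of the 58 genes was -0.13, against 0.02 for all genes well above background, and 38 were negative (65.5%, against 46.9%). These directions depended on the scaling: without normalization between arrays 18 of the 58 were negative and the median was 0.25, although that setting also moved the median of all such genes to 0.39. Relative to that median the antioxidant genes lay at -0.14 in the main scaling and -0.13 after quantile normalization. The value without normalization, also -0.14, was fixed in advance. That setting shifts every gene measured on all 6 arrays by the same amount.

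**Figure D2:**
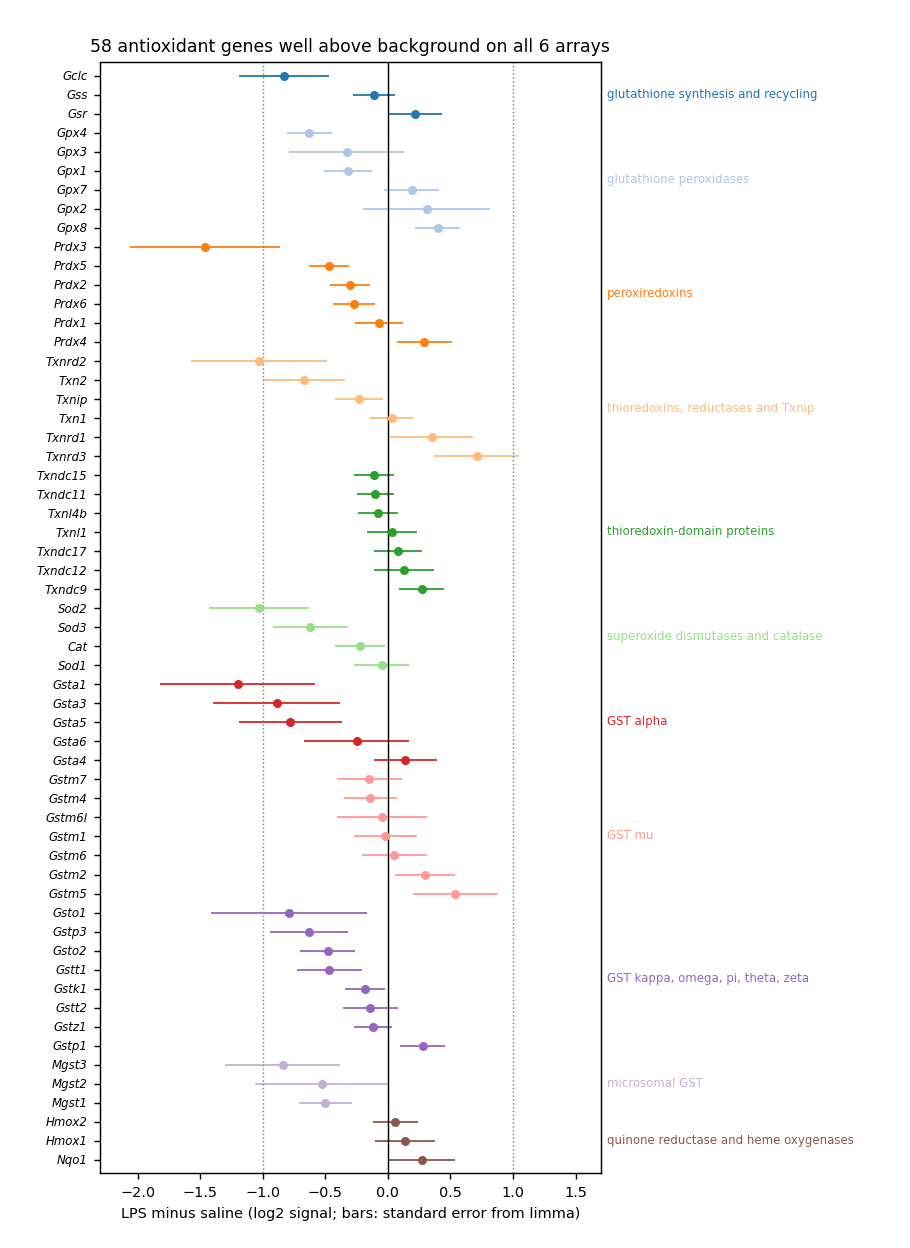
Difference between LPS and saline (log2 signal) for the 58 antioxidant genes well above background on all 6 arrays, grouped by role, with bars for the standard error from limma and dotted lines at 2-fold. Most points lie left of 0, which 38 of 58 did in this scaling and 18 of 58 did without normalization between arrays, and Prdx3 at -1.46 is the lowest.

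The enzymes of glutathione synthesis and recycling showed no gene past the threshold among the 3 that were measured well above background. Gclc, the catalytic subunit of glutamate-cysteine ligase and the rate-limiting enzyme of glutathione synthesis, had a log2 signal of 0.29, 0.46 and 0.43 after LPS and 0.41, 1.80 and 1.46 after saline. Saline replicates 2 and 3 were high while saline replicate 1 lay among the LPS arrays, so the groups overlapped, with a difference of -0.83 (SE 0.36, unadjusted p = 0.055, adjusted p = 0.311 in limma). With replicate number as a block its unadjusted p was 0.0347 (adjusted p = 0.214 in limma). Gss, which adds glycine to complete glutathione, gave 0.09, -0.05 and 0.01 after LPS and 0.34, -0.06 and 0.10 after saline, a difference of -0.11 (SE 0.17) that turned to 0.27 without normalization. Gsr, which reduces oxidised glutathione, gave -0.63, -1.21 and -0.91 after LPS and -1, -1.30 and -1.13 after saline, with overlapping groups and a difference of 0.22 (SE 0.21). The modifier subunit Gclm stayed at background throughout, and no fold is given for it.

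Of the 8 glutathione peroxidases, 6 were well above background, 3 with negative and 3 with positive differences (1 negative and 5 positive without normalization), and 1 passed the unadjusted threshold. Gpx4 reduces lipid hydroperoxides within membranes and is the member that protects cells from ferroptosis. Its log2 signal was 4.34, 4.13 and 3.97 after LPS and 4.61, 4.90 and 4.81 after saline. All saline arrays were above all LPS arrays, with means of 4.15 ± 0.19 and 4.77 ± 0.15 (SD, n = 3 each). The signal was 1.54-fold lower after LPS (-0.63, SE 0.18, unadjusted p = 0.0117, adjusted p = 0.271 in limma), and it kept an unadjusted p under 0.05 whichever single array was left out. Without normalization between arrays the Gpx4 difference was -0.25 (SE 0.41) with an unadjusted p of 0.549 in limma. With slide row as a block, which sets LPS replicate 1 alone against the saline arrays, it was -0.43 (SE 0.25). A second Gpx4 probe gave -0.35 (SE 0.19) with overlapping groups and an unadjusted p of 0.109 in limma.

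Gpx1, the cytosolic enzyme that removes hydrogen peroxide, gave 3.40, 3.31 and 3.23 after LPS and 3.35, 3.85 and 3.70 after saline. Again it was saline replicates 2 and 3 that were high, with a difference of -0.32 (SE 0.19). Gpx3, the secreted plasma form, gave -2.29, -1.55 and -2.14 after LPS and -2.68, -1.12 and -1.18 after saline, a difference of -0.33 (SE 0.46). The opposite order was seen for Gpx2, a form known from epithelia, which was 4.01, 3.40 and 3.35 after LPS and 4.42, 2.46 and 2.94 after saline. Saline replicates 2 and 3 were its 2 lowest arrays and saline replicate 1 the highest. Gpx8, an enzyme of the endoplasmic reticulum, was the only one of the 58 genes with every LPS array (0.60, 0.92 and 1.02) above every saline array (0.48, 0.54 and 0.31), while 5.3% of all genes well above background had that order. In the reverse order, 8 of the 58 genes (13.8%, against 5.88%) had every LPS array below every saline array. The Gpx8 difference of 0.40 (SE 0.18) had an unadjusted p of 0.0671 and an adjusted p of 0.337 in limma. Its unadjusted p was 0.0294 after quantile normalization and 0.0458 with the percentile taken over probes well above background, and it was also under 0.05 in 4 other alternatives, which were no background correction, normexp, the methods' t-test and limma with a trend, and without LPS replicate 1.

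All 6 peroxiredoxins were well above background, and 5 had negative differences in the main scaling (2 without normalization between arrays, 4 after quantile normalization), of which Prdx3 and Prdx5 passed the unadjusted threshold. Prdx3 is the peroxiredoxin of the mitochondrial matrix. Its log2 signal was 2.12, 2.34 and 2.37 after LPS and 2.26, 4.66 and 4.26 after saline. Saline replicate 1 lay within the LPS range, and the other 2 saline arrays were more than 1 log2 unit above all the rest. The fitted signal was 2.74-fold lower after LPS (-1.46, SE 0.60, unadjusted p = 0.047, adjusted p = 0.298 in limma), the largest difference among the antioxidant genes. The mean of the LPS arrays differed from saline replicate 1 by 0.01. Without saline replicate 1 the Prdx3 difference was -2.19 (SE 0.21), with an adjusted p of 0.0137 in limma, and leaving out any other single array took its unadjusted p above 0.05. The fit without saline replicate 1 left only the saline arrays with adrenal transcripts. In it 247 of all 26903 genes passed an adjusted p of 0.05 in limma, against 0 in the main fit. Without normalization between arrays the unadjusted p of Prdx3 was 0.104 (-1.08, SE 0.63).

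Prdx5, a peroxiredoxin of mitochondria, peroxisomes and cytosol, was 1.98, 2.03 and 2.03 after LPS and 2.33, 2.52 and 2.60 after saline. Here the groups did not overlap and saline replicate 1 was also above the LPS arrays. The signal was 1.39-fold lower after LPS (-0.47, SE 0.16, unadjusted p = 0.0237, adjusted p = 0.271 in limma), although the unadjusted p rose to between 0.0525 and 0.0788 when any array other than saline replicate 1 was left out. Without normalization between arrays the Prdx5 difference was -0.09 (SE 0.41, unadjusted p = 0.822 in limma). Prdx2, an abundant cytosolic form known from red blood cells, was 4.02, 4.09 and 4.02 after LPS and 4.24, 4.53 and 4.27 after saline, a difference of -0.30 (SE 0.16) with no overlap (0.07 without normalization). Red blood cell marker sums were 77.1 to 115 after LPS and 128 to 144 after saline, and their part in the Prdx2 values was not tested. Prdx6, which also reduces phospholipid peroxides, was 3.15, 3.30 and 3.18 after LPS and 3.32, 3.50 and 3.62 after saline, a difference of -0.27 (SE 0.17) that became 0.11 without normalization. Neither Prdx2 nor Prdx6 passed the unadjusted threshold. Prdx1, the main cytosolic and nuclear form and an Nrf2 target, showed overlapping values of 3.67, 4.07 and 4.15 after LPS and 4.05, 3.97 and 4.08 after saline. Prdx4, the peroxiredoxin of the endoplasmic reticulum, was the only one of the family with a positive difference in the main scaling, 0.29 (SE 0.22), and had saline replicates 2 and 3 as its 2 lowest arrays.

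**Figure D3:**
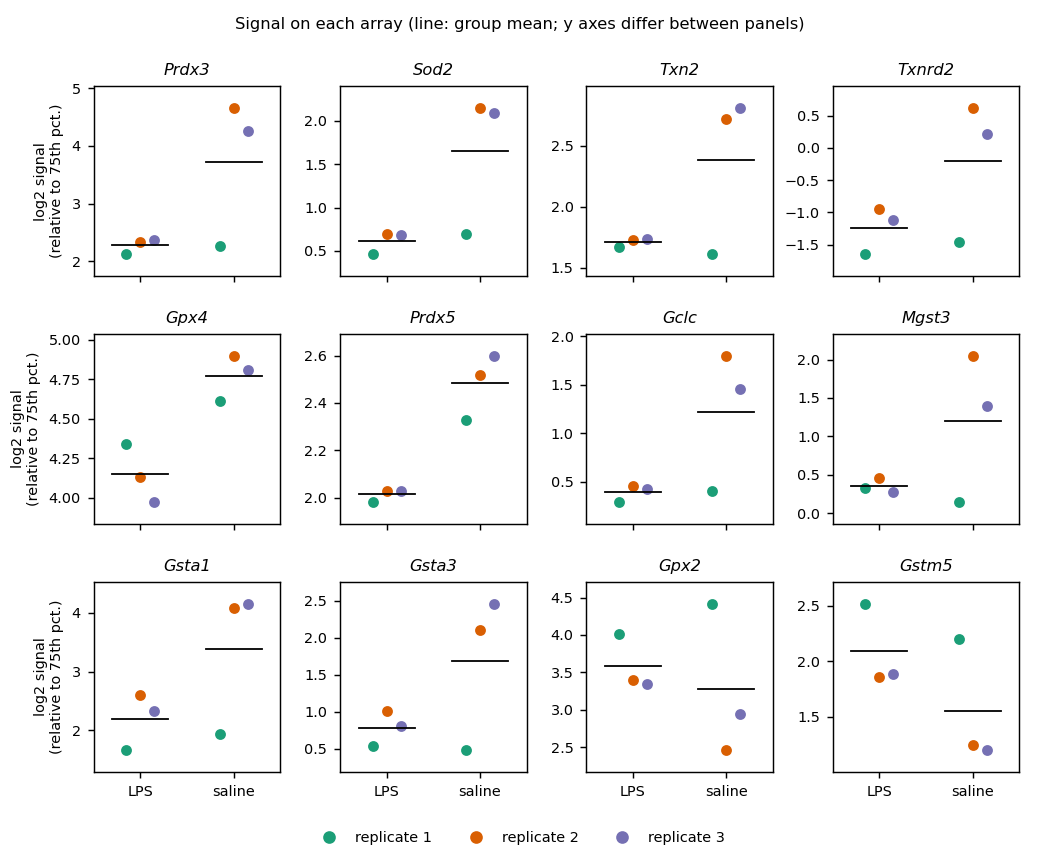
Log2 signal, scaled to the 75th percentile of each array, for 12 antioxidant genes, with 1 point per array coloured by replicate number and a line at each group mean (y axes differ between panels). In Prdx3, Sod2, Txn2, Txnrd2, Gclc, Mgst3, Gsta1 and Gsta3 saline replicates 2 and 3 are high and saline replicate 1 lies at or near the LPS arrays, in Gpx4 and Prdx5 the 3 saline arrays are above the 3 LPS arrays, and in Gpx2 and Gstm5 saline replicates 2 and 3 are lowest.

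The thioredoxin system supplies the electrons for peroxiredoxins. Txn1, the cytosolic thioredoxin, was nearly level at 4.33, 4.41 and 4.34 after LPS and 4.48, 4.38 and 4.12 after saline (difference 0.03, SE 0.17). Txn2, the mitochondrial thioredoxin, was 1.67, 1.73 and 1.74 after LPS and 1.61, 2.72 and 2.81 after saline. Saline replicate 1 was the lowest of all 6 arrays for Txn2 and the other 2 saline arrays the highest, with a difference of -0.67 (SE 0.33, unadjusted p = 0.0889, adjusted p = 0.389 in limma). Txnrd2, the mitochondrial thioredoxin reductase, was -1.65, -0.95 and -1.12 after LPS and -1.45, 0.62 and 0.22 after saline. The highest arrays were again saline replicates 2 and 3, and saline replicate 1 lay within the LPS range. Its fitted difference of -1.03 (SE 0.54) was 2.05-fold but did not pass in the main fit (unadjusted p = 0.0985, adjusted p = 0.413 in limma). With replicate number as a block it had an unadjusted p of 0.0246 (adjusted p = 0.196 in limma). Whether the mitochondrial genes differed from the cytosolic ones was not tested.

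Txnrd1, the cytosolic thioredoxin reductase and an Nrf2 target, was 0.34, 0.69 and 0.74 after LPS and -0.45, 0.45 and 0.72 after saline, a difference of 0.35 (SE 0.33) with overlapping groups. Saline replicate 1 was its lowest array. A second Txnrd1 probe, for which only the LPS arrays were well above background, gave -3.89, -4.15 and -3.77 after LPS and -5.59, -6.10 and -4.69 after saline. Against the detection floor it was at least 2.28-fold higher after LPS (unadjusted p = 0.00448, adjusted p = 0.271 in limma), so the probes of this gene differed in their call. Txnrd3, a thioredoxin-glutathione reductase known from testis, was -3.56, -2.91 and -2.82 after LPS and -4.35, -3.80 and -3.27 after saline. Its difference of 0.71 (SE 0.34) was the largest positive one among the 58 genes, with an unadjusted p of 0.0755 in limma and of 0.00959 with replicate number as a block (adjusted p = 0.355 and 0.167). Without normalization between arrays Txnrd3 was the antioxidant gene past the fold criterion (1.08, unadjusted p = 0.0405 in limma), and leaving out saline replicate 3 or LPS replicate 1 gave an unadjusted p of 0.0265 or 0.0302. Txnip, which binds and inhibits thioredoxin, was 0.15, -0.17 and -0.22 after LPS and 0.12, 0.34 and -0.01 after saline, a difference of -0.23 (SE 0.19) that became 0.15 without normalization. The 7 other thioredoxin-domain proteins well above background had differences between -0.11 and 0.27, and 0 passed the unadjusted threshold.

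The superoxide dismutases and catalase had negative differences in all 4 genes in the main scaling (Sod1 and Cat were positive without normalization, and Sod1 also after quantile normalization), and 1 passed the fold criterion. Sod2 is the manganese superoxide dismutase of mitochondria and is a known target of NF-kB. Its log2 signal was 0.46, 0.70 and 0.69 after LPS and 0.70, 2.15 and 2.09 after saline. Saline replicate 1 was level with LPS replicates 2 and 3, and the gap lay between saline replicates 2 and 3 and all other arrays. The fitted signal was 2.04-fold lower after LPS (-1.03, SE 0.40, unadjusted p = 0.038, adjusted p = 0.286 in limma). Without saline replicate 1 the Sod2 difference was -1.50 (SE 0.18), with an adjusted p of 0.0298 in limma, in the fit where 247 genes passed. Leaving out any other single array took its unadjusted p above 0.05, as did the fit without normalization between arrays (-0.65, SE 0.53, unadjusted p = 0.231). The mean of the LPS arrays minus saline replicate 1 was -0.09.

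Sod3, the extracellular enzyme, was 1.67, 2.05 and 2.11 after LPS and 1.97, 2.76 and 2.95 after saline. Its highest arrays were saline replicates 2 and 3, saline replicate 1 lay within the LPS range, and the difference was -0.62 (SE 0.30, unadjusted p = 0.0763, adjusted p = 0.357 in limma; 0.0199 and 0.185 with replicate number as a block). Sod1, the cytosolic copper and zinc enzyme, was 5.82, 5.51 and 5.27 after LPS and 5.88, 5.41 and 5.47 after saline, a difference of -0.05 (SE 0.22). Cat, the peroxisomal catalase, was -0.58, -0.58 and -0.29 after LPS and -0.52, -0.23 and -0.04 after saline, with overlapping groups and a difference of -0.22 (SE 0.20).

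The promoters of Prdx3 and Sod2, the genes past the fold criterion, are shown with those of Prdx1 and Gsta3, which carry the core of the antioxidant response element to which Nrf2 binds. Each is the 250 bases before the annotated transcription start in RefSeq (GRCr8 assembly), 5′ to 3′ on the strand of the gene, and capitals mark a match to TGACNNNGC on either strand. Prdx3 lies on the minus strand (promoter at chr1:270000112-270000361) and held no match. Sod2, also on the minus strand (chr1:50050169-50050418), held a match on the strand opposite to the gene at -35 to -27 from the start. Prdx1 lies on the plus strand (chr5:135383656-135383905), with a match on the opposite strand at -135 to -127. Gsta3 has 2 annotated starts of which the first is shown (plus strand, chr9:31154739-31154988), with a match on the same strand at -17 to -9.
Prdx3: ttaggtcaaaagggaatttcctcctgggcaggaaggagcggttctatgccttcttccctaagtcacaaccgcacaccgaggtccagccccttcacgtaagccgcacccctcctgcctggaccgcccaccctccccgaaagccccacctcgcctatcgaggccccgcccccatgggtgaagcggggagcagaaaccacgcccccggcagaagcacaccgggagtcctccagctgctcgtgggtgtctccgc
Sod2: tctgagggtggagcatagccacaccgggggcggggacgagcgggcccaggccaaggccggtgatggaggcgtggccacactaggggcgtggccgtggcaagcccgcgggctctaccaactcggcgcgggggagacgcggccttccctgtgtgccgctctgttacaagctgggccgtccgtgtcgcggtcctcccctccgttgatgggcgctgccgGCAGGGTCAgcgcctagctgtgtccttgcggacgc
Prdx1: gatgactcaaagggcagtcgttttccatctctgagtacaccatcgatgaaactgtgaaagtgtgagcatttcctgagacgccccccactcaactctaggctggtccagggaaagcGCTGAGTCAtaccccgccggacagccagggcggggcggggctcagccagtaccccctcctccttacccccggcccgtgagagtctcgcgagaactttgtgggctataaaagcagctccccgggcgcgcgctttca
Gsta3: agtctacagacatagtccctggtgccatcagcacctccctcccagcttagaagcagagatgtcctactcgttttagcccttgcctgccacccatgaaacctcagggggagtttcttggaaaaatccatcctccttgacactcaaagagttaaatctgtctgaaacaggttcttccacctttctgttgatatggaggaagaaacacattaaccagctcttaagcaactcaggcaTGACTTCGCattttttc
Such a match was present in the 250 bases before the start of 12 of the 56 antioxidant genes with a promoter in the table (21.4%), at 1 or more of their starts, against 11% of 27457 genes counted in the same way. Counted by promoter, it was present in 12 of the 63 promoters of these genes (19%) and in 10.1% of all 33469 promoters. The genes were Gclm, Gpx2, Gsta3, Gstm5, Gstm7, Gstp1, Gstz1, Hmox2, Prdx1, Sod2, Txndc11 and Txnrd1. They included genes with negative and with positive differences. The letters CAAGGTCA, a short binding site of the steroidogenic regulator Nr5a1, were found on either strand in 0 of the 56 and in 1.42% of all genes. A match of letters is a description of the window and does not show that a factor binds there.

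Glutathione S-transferases made up the largest family, with 23 cytosolic and mitochondrial genes and 3 microsomal ones, and 0 of them passed the unadjusted threshold in either direction. The alpha class, whose members conjugate lipid peroxidation products and, in steroid-producing tissue, isomerise steroid intermediates, had the lowest median difference of any role, -0.78 over 5 genes well above background (-0.41 without normalization). Gsta1 was 1.66, 2.60 and 2.32 after LPS and 1.93, 4.09 and 4.16 after saline. Saline replicates 2 and 3 were far above the other arrays, with a difference of -1.2 (SE 0.62, unadjusted p = 0.0979, adjusted p = 0.412 in limma) that passed at an unadjusted p of 0.021 with replicate number as a block (adjusted p = 0.188). Gsta3 was 0.54, 1.01 and 0.80 after LPS and 0.48, 2.10 and 2.46 after saline, and its difference was -0.89 (SE 0.51). A second Gsta3 probe, well above background on 4 of 6 arrays, ran the other way at 0.89 (SE 0.78), with its 2 lowest arrays in saline replicates 2 and 3. Gsta5 differed by -0.78 (SE 0.41), with an unadjusted p of 0.102 in limma and of 0.0153 with replicate number as a block (adjusted p = 0.422 and 0.176). Members of this class are close in sequence, so a probe may also capture a neighbour in the family, and the probe sequences were not used here. Gsta4, which acts on 4-hydroxynonenal, did not share the pattern, at 3.24, 3.91 and 3.72 after LPS and 3.81, 3.27 and 3.38 after saline (difference 0.14, SE 0.25).

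The mu class stayed close to 0, with a median of -0.02 over 7 genes and a range of -0.15 to 0.54 (all 7 positive without normalization). Gstm1 was 2.57, 2.38 and 2.40 after LPS and 2.93, 2.08 and 2.39 after saline, a difference of -0.02 (SE 0.25) whose sign changed with the scaling. Gstm5 was 2.52, 1.86 and 1.89 after LPS and 2.20, 1.25 and 1.2 after saline. Saline replicates 2 and 3 were its lowest arrays, with a difference of 0.54 (SE 0.34) that had an unadjusted p of 0.159 in limma and 0.0222 with replicate number as a block (adjusted p = 0.543 and 0.19). Among the other cytosolic and mitochondrial classes, 7 of 8 genes had negative differences in the main scaling (4 without normalization). Gstt1, a theta class enzyme, was 0.60, 0.86 and 0.76 after LPS and 0.69, 1.40 and 1.53 after saline, with a difference of -0.47 (SE 0.26). Gsto1, an omega class enzyme that also reduces dehydroascorbate, was 0.97, 1.76 and 1.76 after LPS and 0.83, 3.13 and 2.90 after saline. The spread between its saline arrays (SD 1.27) exceeded its difference of -0.79 (SE 0.62). Gstp1, the pi class enzyme, was the exception with 3.04, 3.41 and 3.37 after LPS and 3.07, 2.92 and 2.98 after saline, a difference of 0.28 (SE 0.18).

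The microsomal transferases, membrane proteins with glutathione transferase and peroxidase activity, had negative differences in all 3 genes under the main scaling, under no normalization and after quantile normalization. Mgst1 was 3.31, 3.20 and 3.28 after LPS and 3.39, 3.87 and 4.03 after saline. The groups did not overlap, and the difference of -0.50 (SE 0.21) had an unadjusted p of 0.052 and an adjusted p of 0.305 in limma. Mgst3 was 0.33, 0.46 and 0.28 after LPS and 0.14, 2.05 and 1.39 after saline, with saline replicate 1 the lowest array and a difference of -0.84 (SE 0.46). Mgst2 was 0.80, 2.30 and 2.17 after LPS and 1.39, 2.69 and 2.79 after saline. Its arrays with replicate number 1 were low in both groups, and its difference of -0.53 (SE 0.53) had an unadjusted p of 0.353 in limma and 0.0179 with replicate number as a block (adjusted p = 0.785 and 0.181).

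Nqo1, Hmox1 and Hmox2 had small positive differences, none of which passed the threshold. Nqo1, the quinone reductase often used as a readout of Nrf2 activity, was -1.63, -2.16 and -2.09 after LPS and -1.75, -2.50 and -2.41 after saline, a difference of 0.27 (SE 0.27). Hmox1, the inducible heme oxygenase, was -0.55, 0.01 and 0.04 after LPS and -0.59, -0.16 and -0.17 after saline, a difference of 0.14 (SE 0.24). Arrays with replicate number 1 were the lowest of their group for Hmox1 and the highest for Nqo1. Hmox2, the constitutive form, was 0.13, 0.46 and 0.54 after LPS and 0.45, 0.27 and 0.24 after saline, a difference of 0.06 (SE 0.18).

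The order of the arrays was shared by many of the genes. In 26 of the 58 genes well above background (44.8%) saline replicates 2 and 3 were the 2 highest of the 6 arrays, against 13.6% of all genes well above background, and in 7 they were the 2 lowest (12.1%, against 15.3%). The share of antioxidant genes with the high order was 22.4% without normalization (3.52% of all genes) and 46.6% after quantile normalization (13.9%). The 26 genes included 3 of 4 superoxide dismutases and catalase, 4 of 6 peroxiredoxins, 4 of 5 alpha class transferases and all 3 microsomal transferases, but 0 of the 7 mu class genes. Their median difference between LPS and saline was -0.52, whereas the mean of the LPS arrays differed from saline replicate 1 alone by a median of 0, with 13 of the 26 above it. Genes chosen by their order on saline replicates 2 and 3 tend to differ less once these arrays are left out. Such contrasts therefore follow in part from the choice of genes. Of the 26 genes, 23 had an LPS mean within 0.5 log2 units of saline replicate 1. This was not particular to them, as it held for 51 of all 58 genes and for 22 of the 25 with neither order. The 7 genes with the reverse order were Gpx2, Gstm2, Gstm5, Gstp1, Nqo1, Prdx4 and Txndc9, with a median difference of 0.29 that was -0.07 against saline replicate 1. The arrays that define both orders are those with adrenal transcripts. The 26 genes were therefore high where the adrenal marker sums were high by the way they were chosen. Of the other genes, 7 had the reverse order and 25 had neither. The liver sum was also highest and the oviduct and epithelium sum lowest on the same arrays. The part of adrenal or other tissue in these values was not tested.

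Leaving out single arrays showed the same dependence. Without saline replicate 1, 10 antioxidant genes met the fold criterion, all lower after LPS: Gclc, Gsta1, Gsta3, Gsta5, Gsto1, Mgst3, Prdx3, Sod2, Txn2 and Txnrd2. Over all 26903 genes, 312 were higher and 659 lower past the criterion in that fit. Without any one of the other 5 arrays, 0 antioxidant genes met it. With saline replicates 2 and 3 left out together, the 3 LPS arrays were set against 1 saline array that was assumed to vary like the LPS arrays. In this comparison the difference was 0.01 for Prdx3, -0.09 for Sod2, 1.04 for Txnrd1 and 1.26 for Txnrd3. The median over all 66 antioxidant genes was then -0.07, against -0.16 over all genes on the array. In the main fit these medians were -0.14 and -0.04. The slide had LPS replicates 2 and 3 in one row and the other arrays in the other. With this row as a block, only LPS replicate 1 shares a row with saline arrays. Each difference in that fit is therefore LPS replicate 1 minus the saline mean, and not an effect over the 3 LPS arrays. It was -1.61 (SE 0.88) for Prdx3, -1.18 (SE 0.58) for Sod2 and -0.51 (SE 0.24) for Prdx5. For Gsta5 it was -1.36 (SE 0.51) and for Mgst2 -1.49 (SE 0.56). Counts of genes past the criterion with this block rest on that 1 LPS array.

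**Figure D4:**
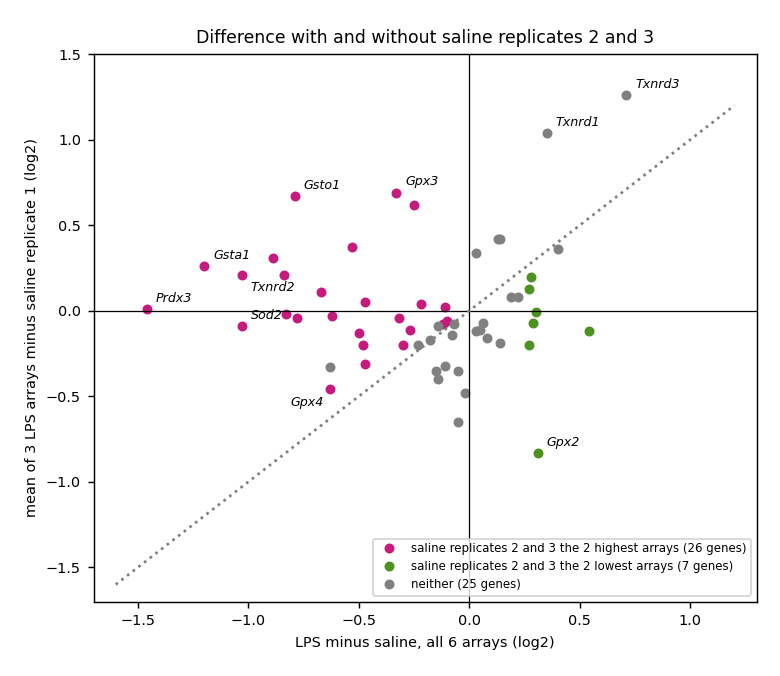
Difference between LPS and saline over all 6 arrays (x axis, log2) against the mean of the 3 LPS arrays minus saline replicate 1 alone (y axis, log2) for the 58 antioxidant genes well above background, with a dotted line of equality. The 26 genes with saline replicates 2 and 3 as the 2 highest arrays reach -1.46 on the x axis and are spread around 0 on the y axis, with a median of 0. These genes were chosen by that order, from which the contrast between the axes follows in part.

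Other genes of oxidant metabolism were counted at an unadjusted p under 0.05. Of 93 listed genes well above background on all 6 arrays, 5 were lower after LPS (5.38%, against 2.41% of all such genes) and 2 were higher (2.15%, against 1.65%). The 13 measured regulators, which include Nfe2l2 (Nrf2) and its inhibitor Keap1, had 0 higher and 1 lower, Bach1, which was never well above background. Among 24 Nrf2 target enzymes and transporters, Aldh1a1, a retinaldehyde dehydrogenase, was higher after LPS (0.67, SE 0.26) and Osgin1, an oxidative stress-induced growth inhibitor, was lower (-1.87, SE 0.69). For Osgin1 the saline values were -3.40, -1.02 and -0.58 against -3.57, -3.44 and -3.59 after LPS. None of the 19 genes of glutathione use and glutaredoxins passed. In methionine, cysteine and selenoprotein supply (18 genes), Cdo1, the cysteine dioxygenase, was higher (0.79, SE 0.24) with no overlap between groups, and Msrb1, a methionine sulfoxide reductase, was lower (-0.40, SE 0.17). In other oxidant defence (16 genes) Aifm1, a mitochondrial flavoprotein, and the paraoxonase Pon3 were lower. Among 18 oxidant sources, Aox1, an aldehyde oxidase, was lower (-1.69, SE 0.53) and Nox3, never well above background, was higher. The arrays with adrenal transcripts, saline replicates 2 and 3, were the 2 highest for Osgin1, Msrb1, Aifm1, Pon3 and Aox1 and the 2 lowest for Aldh1a1 and Cdo1. None of these genes passed after adjustment, with adjusted p-values from 0.271 to 0.299 in limma.

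The remaining 8 of the 66 genes lay at the limit of detection. Gclm, Gpx5, Txndc2, Txndc8 and Gstt4 never rose well above background. Their log2 values ran from -7.58 to -6.32, each below the detection floor of its own array (-6.42 to -5.22 over the 6 arrays), and no fold is given. Of the 3683 genes that were lower at an unadjusted p under 0.05 in limma, 392 were well above background on all arrays. Gpx6 exceeded background clearly on 1 LPS array alone, Gsta2 on 2 LPS arrays and 1 saline array, and Gstm3 on all 3 LPS arrays but none after saline. For Gstm3 the bound was at least 1.02-fold higher after LPS, with an unadjusted p of 0.458 and an adjusted p of 0.858 in limma.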

How the data were processed

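Total RNA from neonatal ovaries was amplified and hybridized by the authors to 6 single-colour Agilent arrays on 1 slide, 3 per treatment. The authors deposited the spot intensities written by Feature Extraction 10.5.1.1, in which background is already subtracted and dim spots hold a surrogate value, and a table of the same intensities for the whole series. The normalization used for the published values is not given in the sources used here, and the submitters' processing notes name lumi. The 75th percentile of the processed signal was 3956, 5025 and 6754 after LPS and 2824, 5801 and 3941 after saline. Spots well above background made up 72.4% to 76% of spots on LPS arrays and 66.3% to 70.4% on saline arrays, correlations between arrays were 0.962 to 0.995, and 3 arrays a group limit the precision.

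Log2 signals and their differences were computed from the deposited intensities. Outlier spots were removed, spots of a probe averaged, and the 75th percentile over probes subtracted on each array. LPS was compared with saline by limma 3.58.1 (R 4.3.3) over 30367 probes, each with at least 2 unflagged arrays per group, with Benjamini-Hochberg adjustment over all probes. The files give no gene names, so 17998 probes were named through RefSeq accessions with a GRCr8 gene table (15154 symbols), and 12369 kept their identifier. A gene was called well above background on an array by the software's flag. Where no array of a group was, a bound against the detection floor is given, and no fold where both groups were dim. An exact permutation test of 3 arrays against 3 cannot give a p below 0.1.

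The genes and lists were chosen with earlier results of these data known. Values on every array are given for antioxidant genes well above background with an unadjusted p under 0.05 and for anchor genes of each role that were, dim genes being given by their joint range, and also for Gpx2, Gpx8, Txnrd2, Txnrd3, Gsta3, Gstm5, Gsto1, Mgst2, Mgst3 and Osgin1, which were chosen after their values were seen. For replicate numbers 1, 2 and 3 the deviations of the LPS and the saline array from their group means had a correlation of 0.298, 0.215 and 0.254 over all probes. Between different numbers it ran from -0.271 to 0.16, the highest for LPS replicate 2 with saline replicate 3. The main fit had no replicate term, and replicate number was used as a block in an alternative fit only. A pairing by number rests on these correlations alone. The 20 alternatives covered scaling, background correction, dim and outlier spots, the test, the slide row and replicate number as blocks, the probe of a gene, and arrays left out. The procedure was tested on simulated data with independent noise, which held no shift shared by saline replicates 2 and 3. Protein and PCR measurements of the study were not analysed here.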

Additional observations from a re-analysis of the deposited data

How the results depend on the processing

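Of 39 named genes well above background on all arrays, 12 never changed direction over 20 alternatives. Antioxidant genes past the 2-fold criterion numbered 2 in the main fit, 1 without normalization between arrays (Txnrd3, higher, while Prdx3 and Sod2 no longer passed), 3 with slide row as a block (Gpx6 higher, Gsta5 and Mgst2 lower), 0 after quantile normalization, with the 75th percentile over probes well above background or with the methods' t-test, 4 with the replicate block (196 genes higher and 329 lower over the whole array), and 0 to 10 with 1 array left out. Their median of -0.14 was 0.23 without normalization, a setting that moved the median of all genes from -0.04 to 0.33, and -0.18 to -0.12 with 1 array left out. All genes past the criterion, 422 in the main fit (34.4% higher), numbered 996 without normalization (80.6% higher), 247 after quantile normalization (38.5%), 189 without background correction (0%), 246 with normexp (0.407%), 251 without dim probes (36.3%), 118 by the methods' t-test (67.8%), 1352 with slide row as a block (95.6%), 825 without saline replicates 2 and 3 (47.2%), and 205 to 971 with 1 array left out. Of calls at an unadjusted p under 0.05, the replicate block changed those of the genes given with it in the report and of Gsto2 (0.0239, adjusted p = 0.194 in limma), and no other among the 66. Without normalization 40 of the 58 genes well above background had positive differences, against 20 in the main scaling. The lists that follow are limited to the named genes. Without normalization the difference turned positive for Cat (0.16), Gpx1 (0.05), Gpx3 (0.04), Gss (0.27), Gstm1 (0.36), Prdx1 (0.31), Prdx2 (0.07), Prdx6 (0.11), Sod1 (0.32) and Txnip (0.15). It also did for Gstm1 (0.07), Prdx1 (0.04) and Sod1 (0.02) after quantile normalization and for Gstm1 (0.03) with the percentile over probes well above background. With slide row as a block, in which only LPS replicate 1 shares a row with saline arrays, the sign changed for Gsta4 (-0.24), Gstm1 (0.1), Hmox1 (-0.25), Hmox2 (-0.19), Sod1 (0.23) and Txnip (0, rounded). With saline replicates 2 and 3 left out it changed for Cat (0.04), Gpx2 (-0.83), Gpx3 (0.69), Gsta1 (0.26), Gsta3 (0.31), Gsta4 (-0.19), Gstm5 (-0.12), Gsto1 (0.67), Gstt1 (0.05), Hmox2 (-0.07), Mgst2 (0.37), Mgst3 (0.21), Nqo1 (-0.2), Prdx3 (0.01), Prdx4 (-0.07), Txn1 (-0.12), Txn2 (0.11) and Txnrd2 (0.21). With 1 array left out the sign changed for Gpx2 (-0.09 to 0.89), Gsta4 (-0.01 to 0.33), Gstm1 (-0.21 to 0.22), Hmox1 (0 to 0.33), Hmox2 (-0.02 to 0.18), Prdx1 (-0.16 to 0.08), Sod1 (-0.2 to 0.09) and Txn1 (-0.07 to 0.11). Leaving out normalization shifts every gene measured on all arrays by the same amount. Cat thus moved from -0.22 to 0.16 and Gss from -0.11 to 0.27. The percentile over probes well above background also shifts these genes alike. The values with slide row as a block are LPS replicate 1 minus the saline mean. Causes of the other sign changes were not tested, apart from the use of fewer arrays where arrays were left out. Signal over background limits the 8 genes that were not well above background on every array.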
